A study of Rattus norvegicus with 10 samples.

Results

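The collagens, the laminins and the proteins that fold, trim, crosslink and decorate them were examined in mammary glands of female rats (Sprague-Dawley) fed 1 of 3 purified diets. Members were chosen by symbol: every collagen chain, laminin chain, prolyl 3-hydroxylase, lysyl hydroxylase, prolyl 4-hydroxylase alpha subunit, lysyl oxidase, fibulin, fibrillin and nidogen on the array. Fibronectin, Sparc, decorin, lumican, biglycan, fibromodulin, elastin, tenascin C, periostin, Serpinh1, Pcolce and Bmp1 were added by name. The choice gave 66 genes on 86 probe sets, of 10411 named genes on the array. Each gene was read from its brightest probe set, the one with the highest mean log2 signal over the 10 arrays. Of the 66, 55 were bright enough to be tested, beside 7119 tested genes in all, and 11 were not.

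The diets are labelled CAS (3 arrays, numbered 1, 2 and 3), SPI (4 arrays, numbered 2 to 5) and GEN (3 arrays, numbered 1, 3 and 5). CAS and SPI stand for casein and soy protein isolate in what is known of the study, and GEN is genistein, an isoflavone of soy; the labels give no dose or feeding schedule. All animals were studied at postnatal day 50, and the labels give no other treatment and no genotype beyond the strain. Each array was hybridised with RNA pooled in equal amounts from the #4 mammary gland of 2 rats on the same diet. The source is labelled as epithelial cells, but the protocol for labelling names the mammary gland, and colon also appears in the description of the design. The labels state that 3 labelled targets were made from each pool but not which arrays share a pool, so the p-values measure the spread between these arrays, which may be partly technical. A signal is the linear MAS5 intensity of a probe set, and the comparisons are differences of mean log2 signal.

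Collagens are triple helices of 3 chains. Inside the cell their prolines and lysines are hydroxylated and their folding is watched over by the chaperone Serpinh1; outside it, propeptides are cut off and lysyl oxidases crosslink the fibrils. Collagens I, III and V build the fibrils of the stroma, whereas collagen IV and the laminins form separate networks in the basement membrane. In the mammary gland that sheet lies between the epithelial ducts and the stroma, and also surrounds fat cells and blood vessels.

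Promoter sequences were available for 51 of the 66 members, 41 of them tested, from RefSeq's GRCr8 assembly, each running from 250 bases before the annotated start to 50 bases after it. 4 are shown as examples of the groups described below. Col1a2, a fibrillar chain, and Postn, a matricellular protein, were highest on the same array. Col4a1 is a basement membrane chain, and P3h3 is the prolyl 3-hydroxylase with the smallest p-value against CAS. They lie at chr4:33518307-33518606 (Col1a2, plus strand), chr2:140677811-140678110 (Postn, plus strand), chr16:84885347-84885646 (Col4a1, plus strand) and chr4:159347955-159348254 (P3h3, minus strand). Capitals mark 3 short motifs on either strand: the TATA box motif TATAAA, the motif CCAAT (read as ATTGG on the other strand) and the GC box motif GGGCGG (read as CCGCCC there).
Col1a2: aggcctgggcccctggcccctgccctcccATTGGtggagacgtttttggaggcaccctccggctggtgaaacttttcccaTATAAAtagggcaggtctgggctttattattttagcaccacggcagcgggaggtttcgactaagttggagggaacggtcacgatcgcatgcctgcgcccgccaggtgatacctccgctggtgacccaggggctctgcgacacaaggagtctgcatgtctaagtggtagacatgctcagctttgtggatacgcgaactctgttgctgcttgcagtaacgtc
Postn: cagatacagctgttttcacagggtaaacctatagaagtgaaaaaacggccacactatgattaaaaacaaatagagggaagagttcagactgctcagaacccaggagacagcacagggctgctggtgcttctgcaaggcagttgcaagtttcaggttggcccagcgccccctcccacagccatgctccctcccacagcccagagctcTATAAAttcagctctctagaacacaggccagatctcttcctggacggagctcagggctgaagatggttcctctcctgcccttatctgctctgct
Col4a1: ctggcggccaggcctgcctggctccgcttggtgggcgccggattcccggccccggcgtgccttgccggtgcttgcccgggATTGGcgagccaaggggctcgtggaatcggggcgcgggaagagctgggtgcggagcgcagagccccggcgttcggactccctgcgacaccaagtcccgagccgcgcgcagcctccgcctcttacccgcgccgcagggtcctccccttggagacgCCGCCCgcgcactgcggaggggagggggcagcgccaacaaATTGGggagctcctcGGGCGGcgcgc
P3h3: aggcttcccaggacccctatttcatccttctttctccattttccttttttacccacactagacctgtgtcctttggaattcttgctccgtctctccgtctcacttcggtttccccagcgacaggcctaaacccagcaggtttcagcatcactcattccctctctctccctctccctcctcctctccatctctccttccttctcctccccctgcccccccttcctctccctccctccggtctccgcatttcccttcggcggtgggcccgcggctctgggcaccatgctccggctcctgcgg
TATAAA began 44 bases before the start in Postn and 170 bases before it in Col1a2, and the P3h3 window held none of the 3 motifs. The Col4a1 window held 2 matches of GGGCGG and 2 of CCAAT. Col4a1 and Col4a2 are head to head on chromosome 16, their annotated starts 77 bases apart. Among the 41 tested members with a promoter, 26 (63.4%) held GGGCGG, against 34.9% of all 27457 promoters of the same length. CCAAT stood in 11 (26.8%), against 37.7%, and TATAAA in 4 (9.76%), against 14.3%.

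The arrays were of like brightness, with medians from 222.8 to 256.7, and arrays of 1 diet were about as alike as arrays of different diets (median correlation over probe sets 0.944 and 0.942). Markers of several cell types were measured above the filter: 12 of 13 luminal epithelial, 12 of 13 fibroblast, 10 of 10 endothelial and 11 of 11 macrophage markers on the array. No cartilage or bone marker of the 5 on the array was. In such mixed RNA, fewer cells of a type and less RNA per cell cannot be told apart. CAS 1 stood apart: the 12 skeletal muscle markers on the array summed to a signal of 9508 there, against 2315 to 3093 on the other arrays, although Myh2, Myh4, Tnnt3, Tnnc2, Actn3 and Mb were below the filter. Its fibroblast markers summed to 34827, against 21285 to 30568. Vim alone gave 14594 of the sum on CAS 1, and 12117 to 20975 on the other arrays. CAS 1 gave the highest signal of the 10 arrays for 23 of the 55 members, against 9.5% of all tested genes. By group these were 5 of 8 fibrillar collagens, 4 of 4 processing and crosslinking enzymes, and 5 of 8 hydroxylating and folding enzymes. Also among them were 3 of 10 laminins and nidogens, 2 of 4 small leucine-rich proteoglycans, and 2 of 4 glycoproteins and matricellular proteins. The rest were 1 of 7 other collagens and 1 of 4 elastic fibre proteins, with 0 of 6 basement membrane and network collagens. The ratio of 3' to 5' actin control signal, a measure of RNA integrity, ran from 4.06 to 5.04 on CAS, 2.94 to 7.77 on SPI and 2.83 to 5.15 on GEN. The 7.77 was on SPI 4, the highest array for 11 of the 55 members (13.1% of all genes), 5 of them laminins or nidogens. With the actin ratio as a covariate the median log2 difference of the members was -0.11 for SPI and -0.16 for GEN against CAS, beside -0.11 and -0.18 without it. These medians do not show how RNA integrity bears on SPI against GEN or on single groups such as the laminins. The part of muscle or fibroblast RNA in the differences below was not tested. Several differences are also given without CAS 1.

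**Figure D1:**
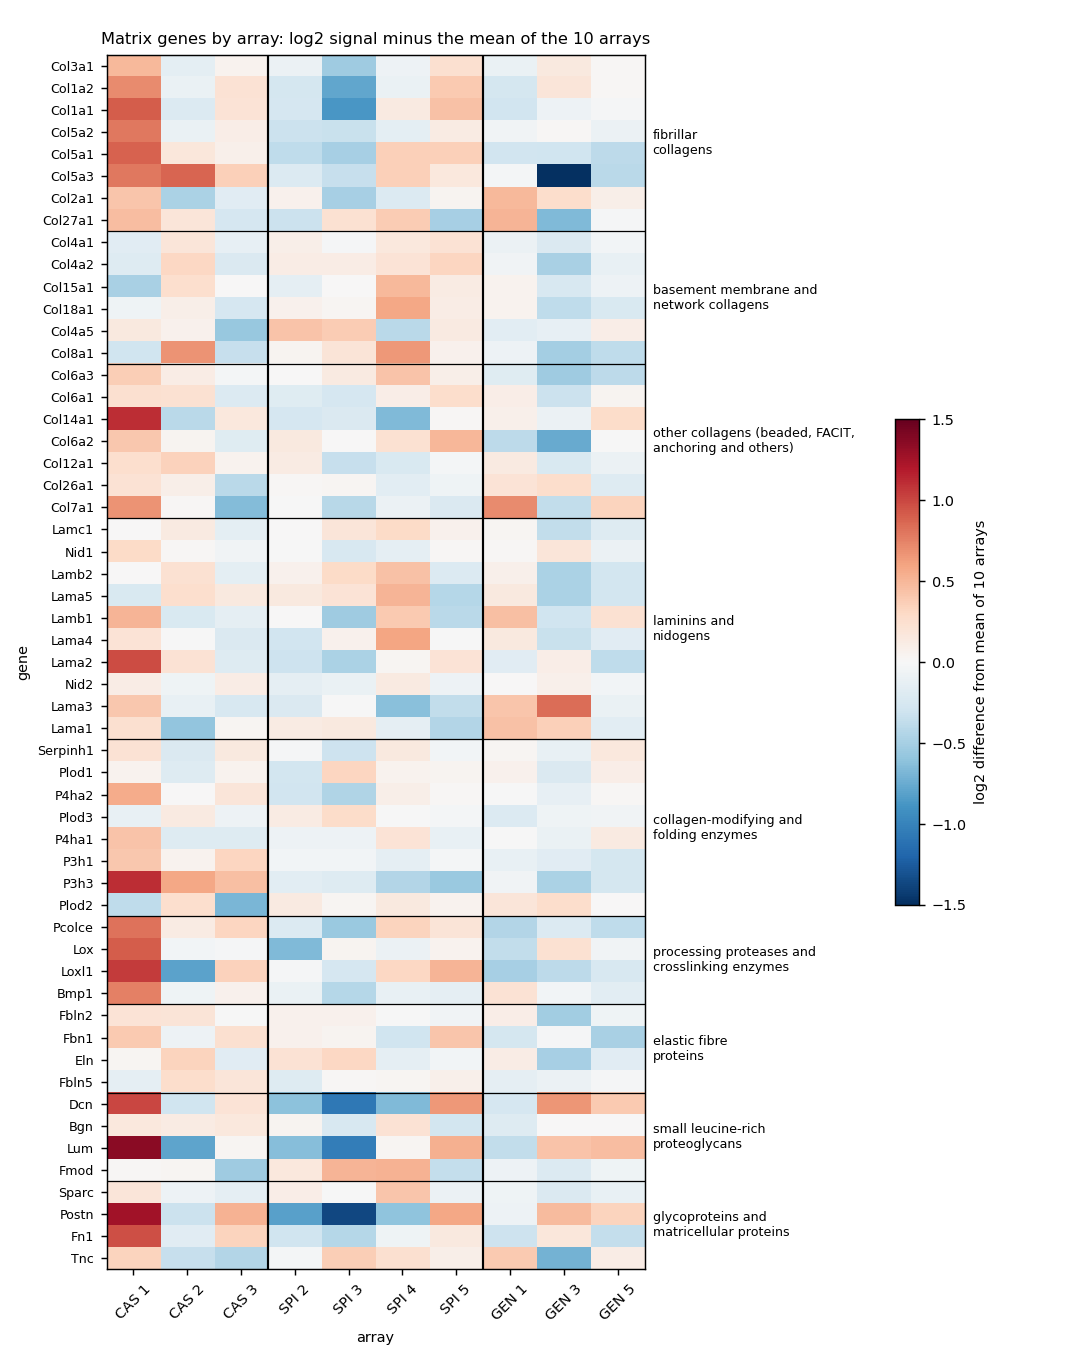
Each row is 1 of the 55 tested members, grouped by role, each column is 1 array, and the colour is the log2 signal minus the gene's mean over the 10 arrays, with values beyond the ends of the bar, such as Col5a3 on GEN 3, drawn in the end colour. Red fills the fibrillar and processing rows of CAS 1, which was the highest array for 23 members, and SPI 3 was the lowest for 18 (8.12% of all genes) and GEN 3 for 17 (14.1%).

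No probe set passed an adjusted p of 0.05 in any of the 3 comparisons (limma, Benjamini-Hochberg over 9520 probe sets). At an unadjusted p of 0.05, 459 probe sets (4.82%) stood out when SPI was set against CAS. For GEN and CAS the number was 561 (5.89%), and for SPI and GEN it was 757 (7.95%). Among members, 9 of 55 reached an unadjusted p of 0.05 for SPI against CAS, where 5% of all tested genes did, and all 9 were lower on SPI (3.4% of all genes). For GEN against CAS 8 of 55 did, against a background of 5.9%, all 8 lower on GEN (3.41%). For SPI against GEN 7 of 55 did, against 7.81%, 6 of them higher on SPI (3.95%). Those lower on SPI than on CAS were Bmp1, Col5a2, Col5a3, Fn1, P3h1, P3h3, P4ha2, Pcolce and Postn. Those lower on GEN were Col5a1, Col5a3, Col6a2, Col6a3, Fbn1, P3h1, P3h3 and Pcolce. Those higher on SPI than on GEN were Col18a1, Col4a2, Col6a2, Col6a3, Col8a1 and Lamc1, and Lama3 was lower. The arrays of the diets did not overlap for 3 members on SPI below CAS (2.73% of all genes) and 7 on GEN below CAS (5.65%). Between SPI and GEN, 6 members were higher on SPI without overlap (4.4%) and 1, Col2a1, was lower (4.3%). The smallest adjusted p of any member was 0.292, 0.577 and 0.461 in the 3 comparisons, so none of the differences that follow passed the test. Leaving out single arrays, the count ran from 1 (CAS 1 or SPI 3 left out) to 18 (CAS 2) for SPI and CAS, with 2 without SPI 2, 4 without GEN 5 and 14 without SPI 5. It ran from 5 (CAS 1) to 11 for GEN and CAS, and from 3 (GEN 3) to 12 (SPI 5), with 11 without GEN 1, for SPI and GEN. The share of all tested genes at that level was not counted in these fits. The counts therefore cannot show whether the members or all genes shifted. The 95% interval of a member's log2 difference had a median half-width of 0.42, 0.45 and 0.42.

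The median log2 difference of the 55 members was -0.11 for SPI against CAS (-0.01 over all tested genes), with 35 members lower (51.7% of all genes). It was -0.18 for GEN against CAS (-0.02 over all genes), with 44 lower (53.8%), and 0.01 for SPI against GEN (0.01 over all genes). Macrophage markers were lower on SPI than on CAS in 11 of 11 tested (median -0.65, 4 at an unadjusted p of 0.05) and on GEN in 9 of 11 (median -0.47, 1 at that level). They summed to 8750 to 22455 on CAS, 6358 to 13190 on SPI and 7810 to 14542 on GEN, and their part in the members' differences was not tested. The first pair of comparisons share the CAS arrays, and with them CAS 1. Without CAS 1 the medians were -0.02 and -0.08, and the members at an unadjusted p of 0.05 numbered 1 and 5. The share of all genes at that level was not counted without CAS 1.

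**Figure D2:**
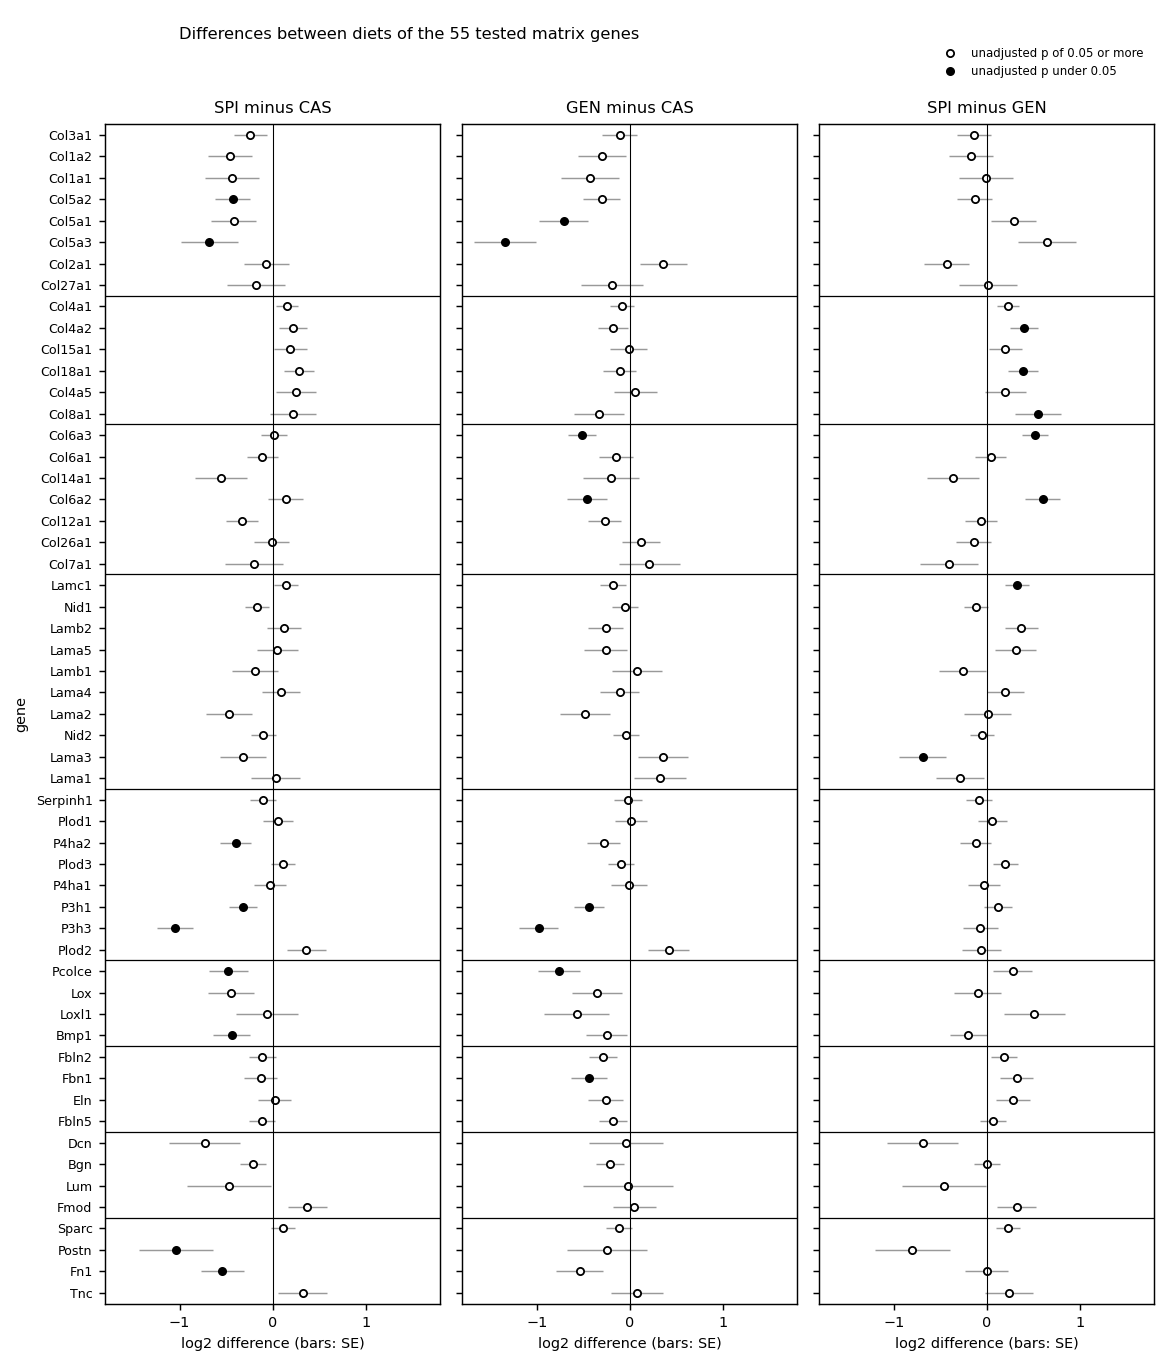
Log2 difference of each tested member in the 3 comparisons, with bars for its standard error from the limma fit, members grouped by role. Fibrillar collagens lie left of 0 for SPI against CAS in 8 of 8, and the 6 basement membrane and network collagens lie right of 0.

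Fibrillar collagens, the rope-forming chains of the stroma, were lower on SPI than on CAS in 8 of 8 tested chains, with a median log2 difference of -0.42. On GEN 7 of 8 were lower, with a median of -0.30. Without CAS 1 these medians were -0.15 and -0.06. Col3a1, the single chain of collagen III, gave 27985, 18033 and 20623 on CAS, 18830, 13756, 18904 and 23542 on SPI, and 18701, 22111 and 20231 on GEN. The 3 diets overlapped, and the log2 difference was -0.24 ± 0.18 (SE) for SPI and -0.11 ± 0.19 for GEN against CAS (-0.07 and 0.07 without CAS 1). Col1a1, a chain of collagen I, gave 20511, 9492 and 12589 on CAS, 9177, 5941, 11983 and 14814 on SPI, and 8970, 10364 and 10786 on GEN. CAS 1 was the highest array, and the other arrays of all diets overlapped. Its differences from CAS were -0.44 ± 0.29 on SPI and -0.43 ± 0.31 on GEN, and those of Col1a2, its partner chain, were -0.46 ± 0.24 and -0.30 ± 0.26. The dimmer Col1a1 probe set was at -0.63 on SPI and -0.42 on GEN, and that of Col1a2 at -0.41 and -0.48. Between SPI and GEN the differences of these chains were smaller than their standard errors, at -0.14 ± 0.18 for Col3a1, -0.01 ± 0.29 for Col1a1 and -0.17 ± 0.24 for Col1a2. Fibroblast markers, from the cells that make most fibrillar collagen, were also lower against CAS: 9 of 12 tested on SPI, 4 of these at an unadjusted p of 0.05 (median -0.53), and 11 of 12 on GEN, 2 of these at that level (median -0.44). Vim, the intermediate filament protein vimentin, was higher on SPI (0.42 ± 0.11, adjusted p = 0.636). Their part in the collagen differences was not tested.

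Collagen V is the minor chain set that nucleates fibrils and sets their width. Col5a3 gave 788, 836 and 581 on CAS, 394, 359, 582 and 507 on SPI, and 447, 154 and 343 on GEN. All 3 GEN arrays lay below all CAS arrays, whereas 1 SPI array reached the lowest CAS value. Its log2 difference was -1.34 ± 0.33 for GEN against CAS (adjusted p = 0.766) and -0.68 ± 0.31 for SPI against CAS (adjusted p = 0.987). Leaving out GEN 3, its lowest array, brought the GEN difference to -0.89. Col5a1 gave 3750, 2290 and 2149 on CAS, 1559, 1439, 2613 and 2610 on SPI, and 1667, 1650 and 1544 on GEN. The GEN arrays again lay below every CAS array (-0.71 ± 0.26, adjusted p = 0.825), while SPI overlapped CAS (-0.42 ± 0.24). Without CAS 1 these were -0.45 and -0.17. The dimmer Col5a1 probe set did not show this contrast. It was at -0.60 on GEN and -0.67 on SPI against CAS, and at -0.07 for SPI against GEN. Col5a2 gave 7261, 3920 and 4491 on CAS, 3361, 3329, 3800 and 4587 on SPI, and 4063, 4268 and 3965 on GEN. It differed by -0.43 ± 0.19 on SPI (adjusted p = 0.987) and -0.30 ± 0.20 on GEN, with overlap in both, and by -0.17 and -0.03 without CAS 1, its highest array. Col2a1, the cartilage collagen, was the exception, at -0.07 ± 0.24 on SPI and 0.36 ± 0.25 on GEN against CAS. The dimmer Col2a1 probe set was at -0.84 on SPI and 0.73 on GEN against CAS. On the brighter one the SPI arrays lay below all GEN arrays (-0.43 ± 0.24), but narrowly, with 221 on SPI 2 and 224 on GEN 5. Its geometric mean signal of 210 was not far above the filter. Col27a1 was at -0.18 ± 0.31 on SPI and -0.19 ± 0.33 on GEN.

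Basement membrane and network collagens stood the other way on SPI. All 6 tested were higher on SPI than on CAS (median 0.22, 0.15 to 0.28, none at an unadjusted p of 0.05), and all 6 were higher on SPI than on GEN (median 0.31), 3 at an unadjusted p of 0.05. Without CAS 1 the median against CAS was 0.11 and 1 of 6 was lower. Without CAS 2 it was 0.36, with Col4a2 and Col8a1 at an unadjusted p of 0.05. Col4a1 and Col4a2 pair in the main collagen IV trimer. Col4a1 gave 5144, 6567 and 5338 on CAS, 6172, 5735, 6498 and 6762 on SPI, and 5451, 4984 and 5659 on GEN. Every SPI array lay above every GEN array, a difference of 0.23 ± 0.12 (adjusted p = 0.647), and CAS spanned both. Col4a2 gave 3804, 5398 and 3762 on CAS, 4694, 4699, 5041 and 5439 on SPI, and 4194, 3116 and 4032 on GEN. Its SPI arrays too lay above all GEN arrays, by 0.40 ± 0.15 (adjusted p = 0.563). Without GEN 3 the SPI minus GEN difference was 0.27 for Col4a2 and 0.18 for Col4a1.

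Col18a1, the source of endostatin, gave 1972, 2188 and 1726 on CAS, 2159, 2111, 3088 and 2237 on SPI, and 2131, 1584 and 1760 on GEN. The SPI minus GEN difference was 0.39 ± 0.16 (adjusted p = 0.594), with overlap and the highest value on SPI 4. Leaving out SPI 4 brought it to 0.26. Col8a1, a short-chain collagen of vessel walls, gave 222, 434 and 215 on CAS, 280, 312, 427 and 285 on SPI, and 258, 192 and 210 on GEN. SPI lay above GEN on every array, by 0.55 ± 0.25 (adjusted p = 0.624), and by 0.42 without SPI 4. Col15a1, a relative of Col18a1, and Col4a5, of a minor collagen IV trimer, differed between SPI and GEN by 0.20 ± 0.18 and 0.20 ± 0.22, and between SPI and CAS by 0.19 ± 0.18 and 0.25 ± 0.22. On GEN against CAS the group was near 0 (median -0.09), from -0.33 ± 0.27 for Col8a1 to 0.06 ± 0.23 for Col4a5. Endothelial markers, which share the vessel wall with these collagens, were higher on SPI than on CAS in 10 of 10 (median 0.19, 1 at an unadjusted p of 0.05). They were higher on SPI than on GEN in 8 of 10 (median 0.30, 4 at that level). Their signals summed to 23488 to 32261 on CAS, 28187 to 35658 on SPI and 24362 to 29654 on GEN; their part in these differences was not tested.

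**Figure D3:**
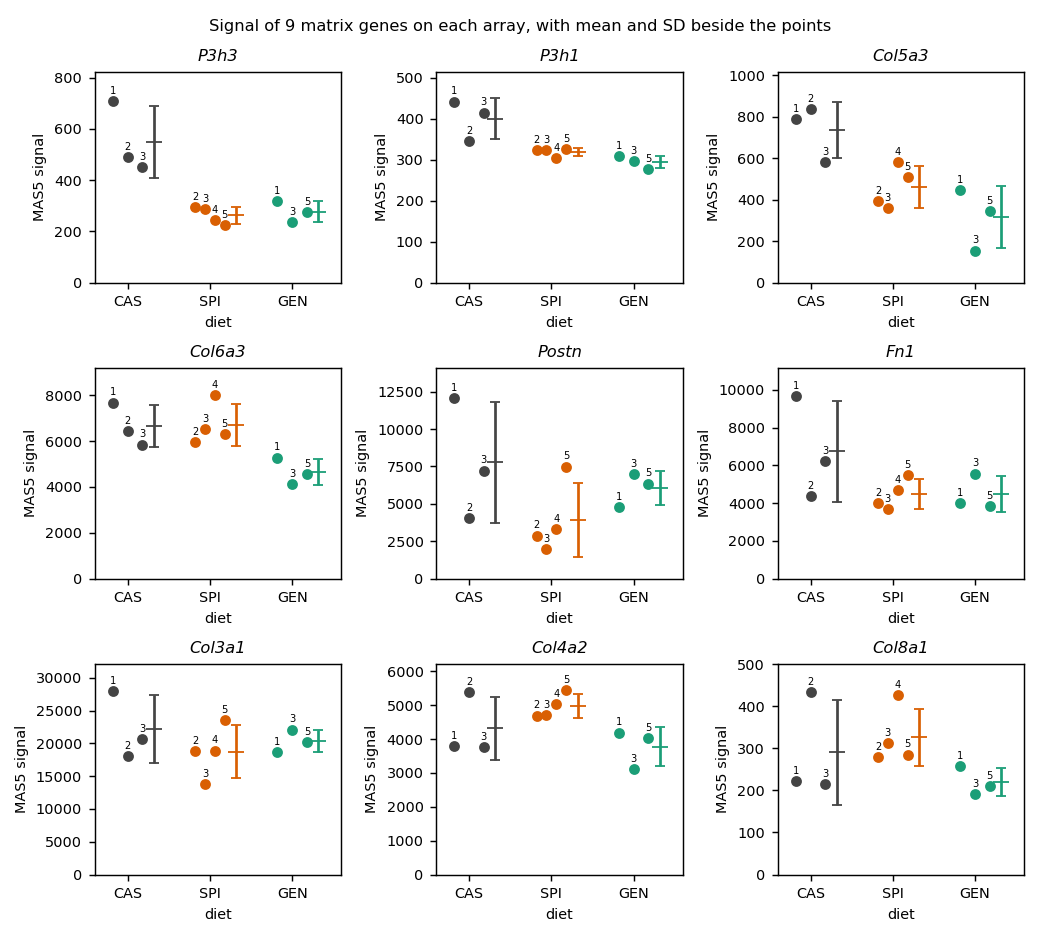
MAS5 signal (vertical axis, linear, from 0) of 9 members by diet; each point is 1 array with its number, and the mark beside the points is the mean with its SD. P3h3 on CAS (450 to 710) lies above every SPI and GEN array, and Col6a3 on SPI lies above every GEN array.

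Collagen VI forms beaded filaments around cells and fat. Col6a3 gave 7681, 6448 and 5848 on CAS, 5963, 6538, 8014 and 6316 on SPI, and 5276, 4137 and 4554 on GEN. All GEN arrays lay below both other diets. Its log2 difference was -0.51 ± 0.15 for GEN against CAS (adjusted p = 0.825), 0.52 ± 0.14 for SPI against GEN (adjusted p = 0.461) and 0.01 ± 0.14 for SPI against CAS. Col6a2 gave 2386, 1852 and 1589 on CAS, 2004, 1816, 2124 and 2552 on SPI, and 1382, 1074 and 1806 on GEN. Against CAS, GEN was at -0.46 ± 0.21 with overlap (adjusted p = 0.825), and at -0.30 without CAS 1. SPI exceeded GEN on every array, by 0.60 ± 0.19 (adjusted p = 0.558). The third chain, Col6a1, was at -0.15 ± 0.18 on GEN against CAS, and SPI and GEN differed by 0.04 ± 0.17. Of the other collagens, Col14a1 and Col12a1, which sit on fibril surfaces, were at -0.56 ± 0.28 and -0.33 ± 0.17 on SPI against CAS, Col7a1 of anchoring fibrils at -0.20 ± 0.31 and Col26a1 at -0.01 ± 0.19. On GEN against CAS the same 4 were at -0.20 ± 0.30, -0.27 ± 0.18, 0.21 ± 0.33 and 0.12 ± 0.20. Col14a1 reached 4859 on CAS 1 and 1434 to 2734 on the other arrays. The dimmer Col14a1 probe set was at -0.23 on SPI and 0.21 on GEN against CAS.

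Laminins and nidogens, the other basement membrane network and its linkers, had medians of -0.03 for SPI and -0.08 for GEN against CAS, and -0.01 for both without CAS 1. No chain of the 10 reached an unadjusted p of 0.05 against CAS. Lamc1, the gamma chain of most laminins, gave 4163, 4562 and 3757 on CAS, 4184, 4712, 5075 and 4336 on SPI, and 4230, 3219 and 3619 on GEN. It differed by 0.32 ± 0.13 for SPI against GEN (adjusted p = 0.583), with overlap, but its dimmer probe set stood at -0.51, the opposite direction. Lama3, the alpha chain of the laminin under epithelial cells, gave 305, 213 and 195 on CAS, 198, 229, 149 and 178 on SPI, and 308, 411 and 214 on GEN. Its SPI minus GEN difference was -0.69 ± 0.25 (adjusted p = 0.563), with SPI 3 above GEN 5. Luminal epithelial markers were lower on SPI than on GEN in 11 of 12 tested, 7 of these at an unadjusted p of 0.05 (median -0.69), and the growth factor Areg was higher (0.58 ± 0.21, adjusted p = 0.563). The luminal markers summed to 13732 to 35877 on SPI and 36644 to 47730 on GEN. Csn3 alone gave 4528 to 17312 and 17131 to 21924 of these sums. Basal and myoepithelial markers were mixed. On SPI 5 of 8 tested were lower than on GEN, 2 of these at an unadjusted p of 0.05 (median -0.60). Acta2, Myh11 and Tagln were higher on SPI. The part of either marker list in Lama3 was not tested. Lama2, the laminin chain of muscle and peripheral nerve, was at -0.47 ± 0.25 on SPI and -0.48 ± 0.27 on GEN against CAS, and its signal was 1996 on CAS 1, the array with the most muscle marker signal, and 728 to 1177 on the others. Lamb2 and Lama5, chains of vascular and epithelial laminins, were at 0.37 ± 0.18 and 0.31 ± 0.22 for SPI against GEN, and at -0.26 ± 0.19 and -0.26 ± 0.23 for GEN against CAS. Lama4, a chain of vessel laminins, was at 0.20 ± 0.20 for SPI against GEN, Lamb1 at -0.26 ± 0.25 and Lama1 at -0.29 ± 0.26. Nid1 and Nid2 were within 0.17 of 0 in all 3 comparisons on their brightest probe sets. The dimmer Nid1 probe set was at -0.44 on SPI and -0.13 on GEN against CAS, and at -0.31 for SPI against GEN.

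Among the enzymes that hydroxylate and fold collagen, the prolyl 3-hydroxylases P3h1 and P3h3 were lower on both diets than on CAS on every array. P3h3, an enzyme of this family that acts with lysyl hydroxylase 1, gave 710, 490 and 450 on CAS, 294, 288, 243 and 223 on SPI, and 318, 237 and 274 on GEN. The CAS mean was 550 ± 140 (SD, n = 3), against 262 ± 34.3 (n = 4) on SPI and 276 ± 40.6 (n = 3) on GEN, and every CAS array lay above every array of both other diets. The log2 difference was -1.05 ± 0.19 for SPI (adjusted p = 0.292) and -0.98 ± 0.21 for GEN (adjusted p = 0.577). Leaving out CAS 1 left -0.85 and -0.78. P3h1, which modifies single prolines of fibrillar collagen chains, gave 442, 345 and 415 on CAS, 323, 323, 304 and 326 on SPI, and 309, 297 and 278 on GEN. Its CAS arrays too lay above all others, with differences of -0.32 ± 0.15 (adjusted p = 0.987) and -0.44 ± 0.16 (adjusted p = 0.825). P3h1 and P3h3 were the 2 members with this pattern, which 56 genes (0.787% of those tested) showed.

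P4ha2, a catalytic subunit of prolyl 4-hydroxylase, gave 1351, 916 and 1034 on CAS, 750, 669, 976 and 928 on SPI, and 913, 841 and 924 on GEN. It differed by -0.40 ± 0.17 on SPI (adjusted p = 0.987) and -0.28 ± 0.18 on GEN, and by -0.25 and -0.13 without CAS 1. Serpinh1, the collagen chaperone, gave 5654, 4183 and 5388 on CAS, 4831, 3935, 5415 and 4753 on SPI, and 4995, 4516 and 5457 on GEN, so the diets overlapped throughout, with -0.10 ± 0.14 on SPI and -0.02 ± 0.15 on GEN. P4ha1, Plod1 and Plod3 lay within 0.2 of 0 in all 3 comparisons, and Plod2, a lysyl hydroxylase of collagen telopeptides, was at 0.36 ± 0.21 and 0.42 ± 0.22 against CAS. The medians of the 8 tested enzymes were -0.06 on SPI and -0.05 on GEN against CAS, and 0.02 and -0.04 without CAS 1.

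Processing and crosslinking proteins were lower in 4 of 4 tested on both diets, with medians of -0.45 for SPI and -0.46 for GEN against CAS, and -0.16 and -0.09 without CAS 1. Pcolce, which speeds removal of the collagen C-propeptide, gave 4195, 2589 and 2978 on CAS, 2062, 1621, 2993 and 2731 on SPI, and 1760, 2065 and 1833 on GEN. All GEN arrays lay below CAS (-0.76 ± 0.23, adjusted p = 0.825), and SPI overlapped it (-0.48 ± 0.21, adjusted p = 0.987). Without CAS 1 these were -0.56 and -0.28. Bmp1, the protease that Pcolce assists, gave 592, 336 and 369 on CAS, 329, 262, 326 and 320 on SPI, and 408, 341 and 316 on GEN. Its SPI arrays lay below CAS without overlap, at -0.44 ± 0.20 (adjusted p = 0.987), and GEN was at -0.25 ± 0.22. Without CAS 1 these were -0.19 and 0.00. Lox, the founding crosslinker, was at -0.45 ± 0.25 and -0.35 ± 0.27, and its dimmer probe set at -0.81 and -1.02. Loxl1 was at -0.06 ± 0.33 and -0.57 ± 0.35.

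Of the elastic fibre proteins, 4 of 4 tested were below CAS on GEN (median -0.27), 1 of them at an unadjusted p of 0.05. Fbn1, the fibrillin of microfibrils, gave 4529, 3270 and 4067 on CAS, 3610, 3556, 2806 and 4621 on SPI, and 2872, 3403 and 2459 on GEN. It differed by -0.44 ± 0.19 on GEN (adjusted p = 0.825) and -0.13 ± 0.18 on SPI, and by -0.34 and -0.02 without CAS 1, while a dimmer probe set gave -0.76 and -0.55. Fbln2, a fibulin of vessel and basement membrane zones, gave 4282, 4219 and 3700 on CAS, 3883, 3884, 3686 and 3578 on SPI, and 3967, 2581 and 3544 on GEN. The diets overlapped, and the differences from CAS were -0.11 ± 0.14 on SPI and -0.29 ± 0.15 on GEN. Eln, elastin itself, and Fbln5, which helps assemble it, were at -0.26 ± 0.19 and -0.18 ± 0.15 on GEN, and at 0.02 ± 0.18 and -0.12 ± 0.14 on SPI.

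Of the small leucine-rich proteoglycans, which coat fibrils and limit their width, Dcn and Lum varied widely between arrays of 1 diet. Dcn gave 13485, 5487 and 7748 on CAS, 4409, 3217, 4246 and 10582 on SPI, and 5647, 10629 and 8827 on GEN. Its difference of -0.73 ± 0.38 for SPI against CAS came with SPI 5 above the lower 2 CAS arrays, and was -0.38 without CAS 1. Lum gave 5543, 1255 and 2218 on CAS, 1396, 1057, 2228 and 3140 on SPI, and 1689, 2932 and 3000 on GEN, a 5.25-fold range. CAS 1 was again highest and SPI 3 lowest for both genes. Bgn was at -0.21 ± 0.14 on SPI and -0.21 ± 0.15 on GEN, with no overlap for GEN, and Fmod was at 0.37 ± 0.21 on SPI and 0.05 ± 0.23 on GEN.

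Glycoproteins and matricellular proteins had medians of -0.21 on SPI and -0.18 on GEN against CAS, and -0.02 and 0.06 without CAS 1. Postn, the matricellular protein periostin, gave 12056, 4036 and 7228 on CAS, 2868, 1953, 3325 and 7498 on SPI, and 4784, 6992 and 6360 on GEN. The 6.17-fold range was the widest of the tested members. Its SPI minus CAS difference was -1.04 ± 0.40 (adjusted p = 0.987), -0.65 without CAS 1 and -1.44 without CAS 2, and the GEN difference was -0.24 ± 0.43, or 0.14 without CAS 1. Fn1, fibronectin, gave 9662, 4383 and 6222 on CAS, 4004, 3679, 4708 and 5473 on SPI, and 3984, 5565 and 3849 on GEN. Both diets were at -0.54 against CAS (adjusted p = 0.987 for SPI and adjusted p = 0.825 for GEN), and without CAS 1 SPI was at -0.24 and GEN at -0.25. Sparc, a collagen-binding protein, gave 13386, 11222 and 10746 on CAS, 12640, 11793, 15714 and 11101 on SPI, and 11337, 10140 and 10973 on GEN. It differed from CAS by 0.11 ± 0.13 on SPI and -0.12 ± 0.14 on GEN, and Tnc by 0.32 ± 0.26 and 0.08 ± 0.28.

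**Figure D4:**
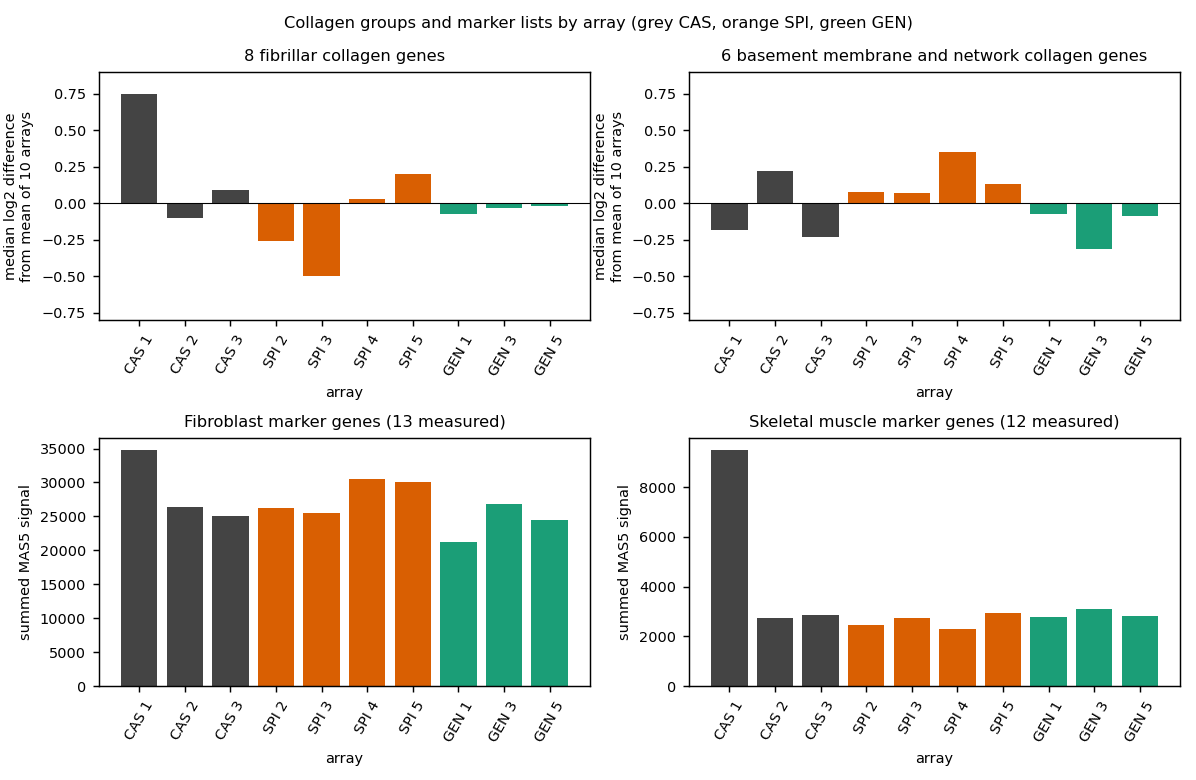
The upper panels give, for each array and collagen group, the median log2 difference of its genes from their own means over the 10 arrays. The lower panels give the summed MAS5 signal of the fibroblast and skeletal muscle markers. Vim is the largest single signal in the fibroblast sum on every array. The fibrillar collagens stand at 0.75 on CAS 1 and -0.50 on SPI 3, whereas the basement membrane and network collagens stand at 0.35 on SPI 4 and -0.31 on GEN 3; the muscle markers stand at 9508 on CAS 1.

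Genes that are not members but belong to the matrix were read from 2 lists. Of 16 tested matrix receptors, 12 were higher on SPI than on CAS (median 0.12), where 48.3% of all tested genes were. On GEN 13 were higher (median 0.11), where 46.2% of all genes were, with 1 in each comparison at an unadjusted p of 0.05. These were the syndecan Sdc3 on SPI (-0.65 ± 0.24) and Sdc1 on GEN (0.33 ± 0.15). Of 30 other matrix proteins, 20 were lower on SPI (median -0.17), where 51.7% of all tested genes were. On GEN 18 were lower (median -0.15), where 53.8% of all genes were. At an unadjusted p of 0.05 there were 5 on SPI, 2 higher and 3 lower, against 5% of all genes. On GEN there were 3, 1 higher and 2 lower, against 5.9%. Mgp, which inhibits calcification, averaged 16114 ± 474 on SPI and 11120 ± 1856 on CAS (0.55 ± 0.14, adjusted p = 0.582). Mfap5, a microfibril protein that also stands on the fibroblast marker list, was at -1.43 ± 0.49, and the proteoglycan Omd at -0.50 ± 0.20. Aspn was at -0.49 ± 0.22 on SPI, and Igfbp7 at 0.21 ± 0.09. On GEN, Fkbp9, a prolyl isomerase, was at -0.50 ± 0.15 and Sparcl1, a relative of Sparc, at 0.49 ± 0.20. Hspg2, the basement membrane proteoglycan perlecan, was at -0.51 ± 0.22 on GEN against CAS, while SPI exceeded GEN by 0.61 ± 0.21 (adjusted p = 0.558).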

How the data were processed

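Signals were measured on Affymetrix RAE230 arrays and deposited by the authors as 1 table of MAS5 intensity values, linear and scaled to a common level, per the submitters' processing notes and the values: the mean without the top and bottom 2% lay between 500.12 and 500.14 on every array. Build and software version are not given in the sources used here. Signals under 1 (0.0637% of values) were set to 1 and log2 taken; 57 control probe sets and the lowest 40% by mean log2 signal were left out, keeping 9520 of 15866, the dimmest at a geometric mean of 162. All 10 arrays entered 1 fit in limma 3.58.1 (R 4.3.3; lmFit, eBayes with trend, 7 residual degrees of freedom, 12.9 with the prior), with Benjamini-Hochberg adjustment over all tested probe sets; the script was tested on simulated data. Genes were named from probe sets with 1 symbol in the platform annotation (12783). The number of arrays limits the precision. Members and lists were chosen with earlier results of these data known. Every member at an unadjusted p of 0.05 in any comparison, and the brightest of each role, was described on every array; Col1a1 and Lum were added after their values were seen. Alternatives varied floor, filter, normalization, trend, groups fitted, replicate block, actin ratio, probe sets and arrays.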

Additional observations from a re-analysis of the deposited data

Results flagged for a closer look

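Among the 26 values checked in the 4 SPI arrays, 3 held an array far from the other SPI arrays, where chance gives about 1 in 20. Col18a1 had a log2 signal of 11.59 on SPI 4, above the other SPI arrays by 0.847 of the whole range. P3h1 had 8.25 on SPI 4, below the others by 0.863 of a narrow range. Bmp1 had 8.03 on SPI 3, below the others by 0.883 of the range. The groups of 3 arrays were not checked in this way.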

How the results depend on the processing

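No member passed an adjusted p of 0.05 in any of the 21 alternatives, so the counts below are of unadjusted p under 0.05. For SPI against CAS the 9 members became 2 with arrays centred on their median (which moved the median of all probe sets from -0.01 to 0.06), 5 without the trend and 4 with only these diets fitted; without single arrays they ranged from 1 (CAS 1, also SPI 3) to 18 (CAS 2). They were 2 without SPI 2, 14 without SPI 5 and 4 without GEN 5. For GEN against CAS the 8 members became 13 with the replicate block and ranged from 5 (without CAS 1) to 11. For SPI against GEN the 7 ranged from 3 (without GEN 3) to 12 (without SPI 5), with 11 without GEN 1. The share of all genes at that level was counted for the main fit only, so these member counts have no background beside them. Probe sets at an adjusted p of 0.05, 0 as reported, became 2 for GEN against CAS with the lowest 60% left out, 1 with the probe sets of a gene averaged, and 2 for SPI against GEN with only these diets fitted; without single arrays they ranged from 0 to 2 for SPI against CAS and from 0 to 1 for each of the other comparisons. Lamc1 for SPI against GEN turned to -0.10 with its probe sets averaged, the mean of a brighter one at 0.32 and a dimmer one at -0.51. Why these 2 probe sets differ was not tested. The member medians kept their sign against CAS without any single array (-0.20 to -0.02 for SPI, -0.22 to -0.08 for GEN). The median over all tested genes in the main fit was itself below 0, at -0.01 for SPI and -0.02 for GEN. The member median of -0.02 for SPI, without CAS 1, was near it, so the sign alone does not set the members apart. Deviations of the 6 pairs of same-numbered arrays correlated between -0.18 and 0.16, and those of differently numbered pairs between -0.4 and 0.3. So few pairs cannot show whether arrays of the same number share a batch or origin. With the replicate block the medians were -0.09, -0.18 and 0.09. Signals near the filter limit what can be seen of the dimmest members.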

Other observations

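The 11 members below the filter had geometric mean signals from 6.82 to 155, with no test. They were the cartilage collagens Col9a1, Col9a2, Col10a1, Col11a1 and Col11a2, the network collagens Col4a4 and Col8a2, and Col19a1, P3h4, Fbln1 and Fbn2. Several probe sets were tested for 13 members. For Col2a1 the brighter probe set was at -0.43 for SPI against GEN and the other at -1.57. Both Col4a1 probe sets were above 0 for SPI against GEN, at 0.23 and 0.15, as were both Col18a1 probe sets, at 0.39 and 0.44.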
